A study of Homo sapiens with 34 samples.

Results

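CLOCK ChIP-seq peaks that appeared only under 6AN are described here, and they numbered 716 of the 4001 intervals in the list of BMAL1 and CLOCK peaks merged over 4 libraries. The intervals were chosen by peak presence in these 4 libraries: each held a peak of the CLOCK library from 6AN-treated cells and none of CLOCK in control, BMAL1 in control, or BMAL1 in 6AN. They made up 17.9% of all merged intervals and 52.3% of the 1369 intervals with a CLOCK peak in 6AN. All cells were *Bmal1*:*luc* U2OS, 1 stable human osteosarcoma line that carries a luciferase reporter under the *Bmal1* promoter. The cells received 5 mM 6-aminonicotinamide (6AN), a precursor of an NADP+ analog that inhibits the pentose phosphate pathway (PPP), or the vehicle DMSO as control. Chromatin was taken at 24 hr, with 1 library for each antibody and condition, so peak presence and score have no replicate and were not tested. RNA-seq covered 12 time points, labelled 0 to 44 hr in steps of 4 hr, with 1 library for each time point and condition, 24 in all. Cells for RNA-seq had been synchronized with dexamethasone.

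CLOCK and BMAL1 are bHLH-PAS transcription factors that pair through their bHLH and PAS domains and bind the E-box CACGTG. Their dimer drives the period and cryptochrome genes, whose products repress it, and the *NR1D* and PAR-bZIP genes that feed back on the same loop. Because CLOCK binds this motif with BMAL1 as its partner, a site with a CLOCK peak and no BMAL1 peak can be set against sites that held both.

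Osteoblast lineage markers were present in part. *RUNX2*, the master regulator of that lineage, had a median of 13.3 FPKM (fragments per kilobase of transcript, scaled to library depth) in control and 13.8 in 6AN, *VIM* had 899 and 724, and the osteoblast factor *SP7* had a median of 0 in both. Some matrix and mineralization markers had lower medians in 6AN. *COL1A1* had 129 FPKM in control and 29 in 6AN, *SPARC* 325 and 126, and *ALPL* 5.78 and 3.68. *SPP1* was higher in 6AN, with 2.04 and 3.81 FPKM, *BGLAP* had 23.2 and 22.2, and *COL1A2* was near 0 in both. The blood markers *CD3E* and *HBB* and the liver marker *ALB* were at a median of 0, and the blood marker *PTPRC* had 0.02 and 0.04. Of the epithelial markers, the keratin *KRT8* was at 98.6 in control and 49.8 in 6AN. The others were low, with 1.13 and 0.65 for *EPCAM* and 0.07 and 0.13 for *CDH1*. Depth differed between libraries. The CLOCK libraries held 4550721.5 tags in 6AN and 4078867 in control, and the BMAL1 libraries 7896479.5 and 7462051. The input libraries differed most among these, with 9651105 tags in 6AN and 33273105.5 in control. The RNA libraries had relative depths of 0.58 to 1.31 in control and 0.70 to 1.55 in 6AN, each against the median of its table.

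The sequences below are shown for the E-box, whose share was higher in CLOCK windows than in windows with BMAL1 alone, with 2 that lack it for comparison. They are the stretches of an interval that lie upstream of a RefSeq transcription start site, on the strand of that gene and from build GRCh38.p14, with each E-box in capitals. The first 6 hold an E-box. *LINC01730* (chr20:3808244-3808359, plus strand) had the highest score of the 716 intervals, *GTF2H1* (chr11:18322482-18322566, plus strand) encodes a subunit of the general transcription and repair factor TFIIH, and *SLC25A33* (chr1:9539314-9539464, plus strand) a mitochondrial carrier of pyrimidine nucleotides. *SMAD3* (chr15:67065352-67065519, plus strand) transduces TGF-beta signals, *APEX1* (chr14:20455050-20455225, plus strand) encodes the apurinic endonuclease that is also known as the redox factor REF-1, and *HK2* (chr2:74835008-74835169, plus strand) the hexokinase that makes glucose-6-phosphate. *ESYT1* (chr12:56128017-56128212, plus strand) encodes a tether between endoplasmic reticulum and plasma membrane, and *CITED2* (chr6:139374363-139374527, minus strand) a partner of the coactivators CBP and p300.
LINC01730: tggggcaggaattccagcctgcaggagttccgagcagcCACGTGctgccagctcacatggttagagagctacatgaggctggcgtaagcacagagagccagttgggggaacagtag
GTF2H1: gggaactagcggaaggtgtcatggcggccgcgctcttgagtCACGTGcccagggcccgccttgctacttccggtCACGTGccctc
SLC25A33: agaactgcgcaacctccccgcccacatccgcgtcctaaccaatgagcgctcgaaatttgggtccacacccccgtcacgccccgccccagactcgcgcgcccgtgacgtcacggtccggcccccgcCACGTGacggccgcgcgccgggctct
SMAD3: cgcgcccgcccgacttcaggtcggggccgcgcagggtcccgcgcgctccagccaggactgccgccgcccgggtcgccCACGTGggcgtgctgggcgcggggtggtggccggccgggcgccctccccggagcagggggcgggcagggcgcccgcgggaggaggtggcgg
APEX1: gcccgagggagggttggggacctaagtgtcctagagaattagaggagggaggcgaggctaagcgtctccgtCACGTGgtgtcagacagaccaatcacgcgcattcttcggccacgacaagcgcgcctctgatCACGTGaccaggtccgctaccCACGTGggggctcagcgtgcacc
HK2: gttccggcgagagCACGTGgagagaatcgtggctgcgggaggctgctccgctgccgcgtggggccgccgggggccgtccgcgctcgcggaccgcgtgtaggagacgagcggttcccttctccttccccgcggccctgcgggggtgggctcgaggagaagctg
ESYT1: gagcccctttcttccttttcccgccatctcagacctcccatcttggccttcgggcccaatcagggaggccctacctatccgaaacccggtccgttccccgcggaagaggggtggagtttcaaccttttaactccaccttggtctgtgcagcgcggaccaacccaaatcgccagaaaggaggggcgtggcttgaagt
CITED2: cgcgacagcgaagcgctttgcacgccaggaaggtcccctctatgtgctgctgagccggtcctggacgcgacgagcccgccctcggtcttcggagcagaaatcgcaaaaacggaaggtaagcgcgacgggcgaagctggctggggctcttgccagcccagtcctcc
The printed stretch of *APEX1* held 3 E-boxes and that of *GTF2H1* 2, against 1 in the other 4, and the whole promoter window of *HK2* held 2.

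The peak score is the number of tags at a peak, scaled by HOMER to 10000000 tags of its library. Scores of the 716 intervals chose them in part, since a peak had to be called, and are given as a description. They ran from 14.3 to 76.9 with a median of 20.9 and quartiles of 18.7 and 25.3. All scores of the library were whole multiples of 1.10 within a tolerance of 0.1 steps, which is what 1 mate of a read pair adds, so the lowest interval rested on 13 mates, the median on 19, and the highest on 70. Most intervals were therefore weak peaks, and 17 of them had a score over 40. The median was 34.1 for the 210 intervals with CLOCK in both conditions, 22.7 for the 443 with CLOCK in 6AN and a BMAL1 peak but no CLOCK peak in control, and 23.3 for the 79 with CLOCK in control and not in 6AN. Where several peaks were joined, these scores are means over the joined peaks, BMAL1 included.

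The lowest score of intervals found in 1 library alone differed between the CLOCK libraries. Among the 57 intervals found only in the control library it was 19.6, or 16 mates, and 250 of the 716 intervals (34.9%, 95% Wilson interval 31.5 to 38.5) scored below it. The other 466 were at or above it. The Wilson intervals given for shares cover counting error only, since there was 1 library for each antibody and condition. PCR copies are not independent molecules, so the mates of a score need not be independent. At 147 sites called for both BMAL1 and CLOCK in control, the CLOCK signal, in tags per 1000 bp on the same scale, was also higher in the 6AN library: its median was 80.2 against 45.4 in control, the median ratio was 1.81, and it was higher at 135 sites. The ratio was 1.16 for BMAL1 and 1.49 for the input at the same sites. The part of these library differences in the number of CLOCK intervals seen only under 6AN was not tested. None of the 716 intervals had its midpoint in these windows or in those of the 439 sites shared in 6AN, so tags of the other libraries at the intervals themselves were not analysed here, and absence of a peak is not absence of tags.

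Peaks were joined by the authors within 200 bp, so the members nearest to the limit of the rule are those with another interval just beyond it. The closest such neighbour was 211 bp away between midpoints, and 13 intervals had one within 250 bp. Within 1 kb, 57 intervals (7.96%) had an interval of another kind and 8 had another CLOCK interval found only under 6AN. The intervals were spread over the genome: 52 lay on chromosome 17, the densest with 0.62 per annotated Mb, and 4 on chromosome X.

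The share of these intervals at promoters was the lowest among the kinds of merged interval, with or without a BMAL1 peak. Start sites were taken from RefSeq, without chromosome 8, which left 695 intervals. Of these, 261 (37.6%, 95% Wilson interval 34.0 to 41.2) had their midpoint within 1 kb of a start site, compared with 48.7% (43.9 to 53.5) of intervals with CLOCK in 6AN and a BMAL1 peak and 48.0% (41.2 to 54.9) of those with CLOCK in both conditions. The 50.7% (39.5 to 61.8) of intervals with CLOCK in control and not in 6AN had an interval that overlapped theirs. Neither kind with CLOCK in control required a BMAL1 peak. Of the 79 intervals with CLOCK in control and not in 6AN, 57 were found in the CLOCK control library alone. Intervals with BMAL1 and no CLOCK peak were closer still: 66.3% were within 1 kb when BMAL1 was found only in 6AN, 67.7% when only in control, and 83.7% when in both. The median distance was 7178 bp for CLOCK seen only under 6AN, 1198 bp with BMAL1, and 145 bp for BMAL1 seen only under 6AN. A further 121 intervals (17.4%) were over 50 kb from any start site. The median score was 20.9 both within 1 kb and further away, and 35.9% (31.6 to 40.4) of intervals at or above a score of 19.6 were within 1 kb.

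The E-box was common at those intervals that fell in a promoter. A RefSeq promoter window, from 250 bases before to 50 after a start site, held the midpoint of 131 intervals. The E-box CACGTG, a palindrome that reads alike on both strands, was in 58 of these windows (44.3%, 36.1 to 52.8), compared with 7.26% of all 35116 promoter windows. The share was 12.7% (10.5 to 15.4) of 706 windows with BMAL1 only in 6AN, 14.7% of 353 with BMAL1 only in control, and 12.5% of 304 with BMAL1 in both. It was 55.2% (47.5 to 62.6) of 163 windows with CLOCK in 6AN and a BMAL1 peak, 62.5% (50.3 to 73.3) of 64 with CLOCK in both, and 44% (26.7 to 62.9) of 25 with CLOCK in control and not in 6AN. The interval of the CLOCK peaks seen only under 6AN thus lay above those of the BMAL1 windows and overlapped those of the other CLOCK windows. No test was made, since peak calls of the same libraries define every set.

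Base composition of the windows is given as a description, and its part in the E-box shares was not tested. The median GC content was 67.3% in the 131 windows and 58.7% in all promoter windows. It was 67.0%, 68.7%, and 69.3% with BMAL1 only in 6AN, only in control, and in both. It was 70.0% with CLOCK in 6AN and a BMAL1 peak, 69.5% with CLOCK in both, and 70.7% with CLOCK in control and not in 6AN. The GC box GGGCGG, read on both strands like the motifs that follow, was in 71% of the 131 windows and in 76.9% of those with BMAL1 only in 6AN, with 45% of all windows. The antioxidant response element TGACNNNGC, the motif of NRF2 and small MAF proteins, was in 16.8% (11.4 to 24.1) of the 131 windows and 13.3% of all windows. Its share was 30.7% (24.1 to 38.1) with CLOCK in 6AN and a BMAL1 peak and 26.6% (17.3 to 38.5) with CLOCK in both. It was 20% with CLOCK in control and not in 6AN, and 12.9% to 19.5% in the windows with BMAL1 alone. The AP-1 motif TGACTCA was in 6.87% (3.66 to 12.5) of the 131 windows and 4.95% of all, and the E-box variant CACGTT in 7.63% and 5.34%. CCAAT was in 37.4% and 34.6%, and the cAMP response element TGACGTCA in 1 of the 131 windows and 1.85% of all. The AP-1 motif and TGACNNNGC can overlap. For the last 5 motifs the share of all windows was inside the interval of the 131 windows, whereas for the E-box it was below.

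Where an E-box was present, it was close to the middle of the interval. The nearest one was a median of 27.5 bp from the midpoint in the 58 windows, and within 50 bp in 41 of them (70.7%). The median was 27 bp for CLOCK in both conditions and 29.5 bp for CLOCK in 6AN with BMAL1, against 50 bp for BMAL1 only in 6AN, 49.5 bp for BMAL1 only in control, and 55.5 bp for BMAL1 in both. By score, the motif was in 34 of 63 windows above the median (54.0%, 41.8 to 65.7) and in 24 of 68 at or below it (35.3%, 25 to 47.2), in intervals that overlapped. Against the lowest score of control-only intervals, the E-box was in 50% of the 86 windows at or above 19.6 and 33.3% (21.4 to 47.9) of the 45 below. Without intervals that had another kind within 1 kb, the share was 44.2% of 120. Motifs in the 585 intervals outside promoter windows were not analysed here.

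**Figure D1:**
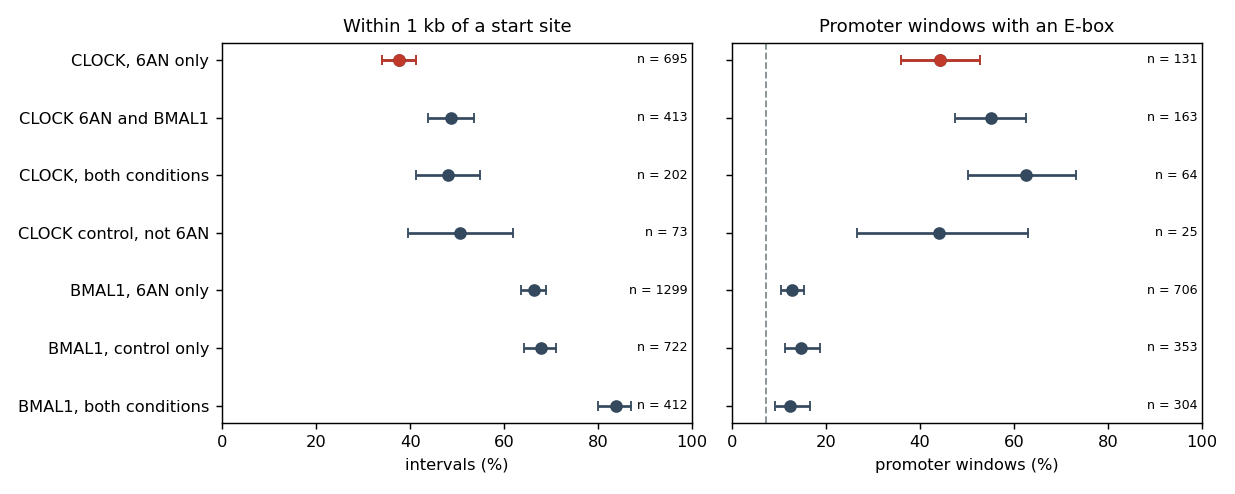
Share of intervals within 1 kb of a start site (left) and share of promoter windows with an E-box (right), both in percent, for the 7 kinds of merged interval, with 95% Wilson intervals as bars and n beside each. CLOCK seen only under 6AN (red) has the lowest promoter share, 37.6%, and an E-box share of 44.3%, between BMAL1 without CLOCK (12.5 to 14.7%) and CLOCK in both conditions (62.5%), where the dashed line marks all promoter windows (7.26%).

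**Figure D2:**
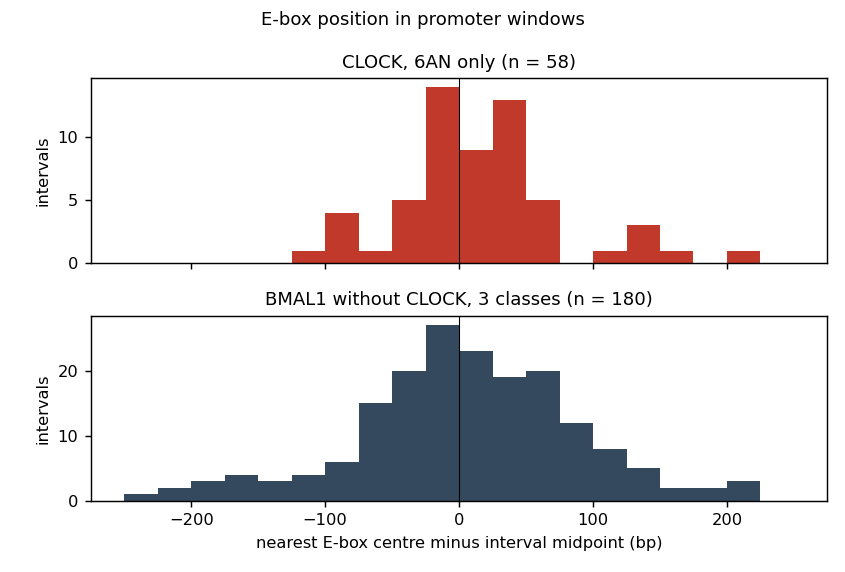
Histograms of the distance in bp from the interval midpoint to the nearest E-box centre (x axis) in promoter windows, with the number of intervals on the y axis, for CLOCK seen only under 6AN (58 windows) and for BMAL1 without CLOCK (180 windows). In the upper panel 41 of 58 lie within 50 bp of 0, and the lower panel is broader.

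For expression, each interval was assigned to the locus of the RNA-seq annotation that held its midpoint, or to the nearest one within 10 kb. Of the 716 intervals, 384 lay inside a locus, 179 within 10 kb of one, and 153 had none. The 563 assigned intervals belonged to 521 loci, 36 of them with several: *SEPT9*, which encodes a septin of the cytoskeleton, had 4, and *LGR6*, a receptor for R-spondins, 3. Of the 521 loci, 147 (28.2%) also had an interval of another kind, and they made up 5.51% of the loci with such an interval. The share of all loci with an interval of another kind was not counted. A mean of at least 1 FPKM over the 24 libraries was reached by 424 loci (81.4%, 77.8 to 84.5), compared with 50.6% of all loci without small RNA. For the loci of the other kinds of interval this share was higher, from 85.3% to 93.8%. The median level of these 424 was 16.9 FPKM, against 11 FPKM over all loci past the same limit. The other kinds of interval had medians of 16.2 to 21 FPKM.

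Few list genes had one of these intervals, as few of all loci did: 3.03% of all expressed loci had one assigned, a share at which 0 or 1 gene of a list this short is near the background. None of 24 clock genes and none of 22 bHLH-PAS and other E-box factor genes had one. *TIMELESS*, a replication fork protein with a debated part in the clock that was not on the list, was named after its values were seen. Its interval (chr12:56449282-56449482, score 29.7) lay 44 bp downstream of the start site with an E-box in the window, and its level was 13.4 to 17.5 FPKM in control (median 15.9) and 10.8 to 19.5 in 6AN (median 14.5). Of the listed clock genes, 10 had a CLOCK interval found in both conditions, which 0.99% of all expressed loci had: the repressors *PER2*, *PER3*, *CRY1*, and *CRY2*, the nuclear receptor *NR1D2*, the PAR-bZIP factors *DBP*, *TEF*, and *HLF*, and the bHLH repressors *BHLHE40* and *BHLHE41*. The lists of 16 NRF2 targets, 12 genes of the integrated stress response, 11 p53 targets, and 14 lysosome genes had 0 with a CLOCK interval seen only under 6AN, near the background share for lists of this length. Of 13 PPP and NADPH genes 1 had one, and of 12 immediate early genes 2.

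*RPIA* encodes ribose-5-phosphate isomerase of the non-oxidative PPP, and its interval (chr2:88691785-88691985, score 29.7) lay 212 bp downstream of the start site. Its level ran from 22.5 to 30.9 FPKM in control (median 26.1) and from 24.9 to 30.3 in 6AN (median 26.9), so the tables overlapped. *JUNB*, a subunit of AP-1, had its interval (chr19:12791227-12791427, score 17.6) 159 bp upstream of the start site, with 55.1 to 82.7 FPKM in control (median 68.9) and 44 to 59.6 in 6AN (median 52.1). It was lower in 6AN at 11 of 12 time points. *FOSL1*, which encodes the AP-1 subunit FRA-1, had medians of 31.8 and 34.8 FPKM in overlapping ranges.

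Of the 12 highest scores, 10 were assigned to a locus, and of those not on chromosome 8 only those of *LOC101929125* and *DCAF4* lay within 1 kb of a RefSeq start site. *LOC101929125*, the locus name of the noncoding RNA *LINC01730*, had the highest interval at 76.9, 235 bp upstream of its start, and was barely expressed, with medians of 0.33 FPKM in control and 0.65 in 6AN and a lowest value of 0 in both. The next was in *CRYBB1* (chr22:26610372-26610572, score 68.1), a lens crystallin gene, with 2.71 to 9.41 FPKM in control (median 4.33) and 0 to 1.79 in 6AN (median 0.55). The *CRYBB1* tables did not overlap. It was followed by *AGAP1* (59.3), which encodes a regulator of ARF GTPases, *TTC7A* (57.1), a scaffold of the phosphatidylinositol 4-kinase complex, the noncoding RNA *LINC00452* (52.7), *TRAPPC9* (51.6) of the vesicle-tethering complex TRAPP, and the noncoding RNA *LACTB2-AS1* (50.5). *NAB2* (49.4), a corepressor of EGR factors, *DNAJB12* (48.3), a chaperone cofactor of the endoplasmic reticulum, and *DCAF4* (45), a substrate receptor of CUL4 ligases, followed, while 2 of the 12 highest intervals had no locus within 10 kb. Of these, *NAB2* was higher in 6AN at all 12 time points, with 37.6 to 52.6 FPKM in control (median 45.5) and 52.6 to 61.3 in 6AN (median 58.1), ranges that just touched. The log2 ratios of the other 6 expressed loci lay between -0.28 and 0.14. These are differences of log2(mean FPKM + 1), 6AN minus control, which understate changes of low loci.

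Taken over all assigned loci, expression differed little between the tables. The 2 tables were normalized separately by the authors, so ratios between them carry no test, and in these bulk libraries fewer cells of a type and less RNA per cell cannot be told apart. The median log2 ratio of the 424 loci was 0.02, with quartiles of -0.23 and 0.24, and -0.04 over all 13979 expressed loci. A ratio of 1.5-fold or more was reached by 33 loci that were higher in 6AN (7.78%), where 5.87% of all expressed loci were, and by 30 that were lower (7.08%), where 9.69% of all were. Of these, 31 (7.31% of the 424) and 25 (5.90%) were on the same side at all 12 time points, compared with 3.43% and 7.18% of all expressed loci. With 1 library each, the 12 time points are a time course and not replicates. The loci of CLOCK intervals found in both conditions had 17.3% higher and 5.76% lower, and those with CLOCK in 6AN and BMAL1 had 8.44% and 5.84%.

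Position and motif were compared with the same ratio. Of 219 loci with an interval within 1 kb of a start site, 19 were higher (8.68%, 5.62 to 13.2) and 11 lower (5.02%, 2.83 to 8.77). Of 213 with one further away, 15 were higher (7.04%, 4.31 to 11.3) and 19 lower (8.92%, 5.78 to 13.5). These 213 include the loci of intervals on chromosome 8, whose distance to a start site was unknown. Among promoter windows with an E-box, 2 of 46 loci were higher (4.35%, 1.2 to 14.5), *HK2* and *RHOBTB3*, and without an E-box 10 of 63 were (15.9%, 8.86 to 26.8), *CITED2*, *LRWD1*, *LOXL4*, *MT2A*, and *HK2* among them. Those of *LOXL4* and *MT2A* were windows of a neighbouring RefSeq transcript. The intervals of both pairs overlapped, and *HK2* counted in both because it had 2 CLOCK intervals seen only under 6AN.

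Among the loci on the same side at all time points, the 5 of largest ratio were *CITED2*, *MAFK*, *LOXL4*, *SLC7A2*, and *MT2A*. *CITED2*, whose interval (chr6:139374327-139374527, score 17.6) lay 65 bp upstream of the start site, ran from 32 to 43.4 FPKM in control (median 35.5) and from 92.5 to 154 in 6AN (median 129), with a log2 ratio of 1.76. *MAFK* encodes a small MAF protein that pairs with NRF2, and had its interval (chr7:1537214-1537414, score 35.2) inside the locus, with 22.4 to 32.5 FPKM in control (median 26.6) and 51.0 to 69.7 in 6AN (median 60.8). Neither locus overlapped between the tables. An interval of another kind was 843 bp from that of *MAFK*. *LOXL4*, a lysyl oxidase of the matrix, had medians of 61.2 and 133 FPKM, *SLC7A2*, a carrier of cationic amino acids, 3.70 and 9.47, and *MT2A*, a metal-binding metallothionein, 4941 and 9262. The lowest 6AN value was above the highest control value in all 5, which the choice by ratio favours. The share of all expressed loci without overlap was not counted. *MT2A* had 2 intervals, and those of *LOXL4* (score 22) and *MT2A* (scores 22 and 19.8) rested on 20 mates or fewer.

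The 5 loci of smallest ratio were chosen among those lower in 6AN at all 12 time points. *SLC2A12*, the glucose carrier GLUT12, had 12.5 to 17.8 FPKM in control (median 15.4) and 2.34 to 3.29 in 6AN (median 2.84), with a log2 ratio of -2.09 and its interval (chr6:134035967-134036167, score 18.7) in the locus. *ADGRG1*, an adhesion receptor, had 5.93 to 20.2 FPKM in control (median 11.5) and 0.98 to 6.93 in 6AN (median 1.85), with its highest 6AN value at 0 hr, and these ranges overlapped. *NRP1*, a coreceptor for semaphorins and VEGF, had medians of 35.6 and 11.5 FPKM and *ITGB3*, the integrin beta3 chain, 3.16 and 0.54, both without overlap, and *CRYBB1* was the fifth. The scores of *SLC2A12*, *ADGRG1*, *NRP1*, and *ITGB3* lay between 17.6 and 23.1.

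*HK2* was named after its values were seen, for its pair of intervals and its E-box. The intervals (chr2:74835008-74835208, score 23.1, and chr2:74833871-74834071, score 18.7) lay 62 bp upstream of the *HK2* start site and 16 bp downstream of that of its divergent transcript *HK2-DT*. *HK2* ran from 6.38 to 8.67 FPKM in control (median 7.37) and from 11 to 19.3 in 6AN (median 14.9), without overlap. The loci of the other printed E-boxes differed less. *APEX1* had medians of 243 and 249 FPKM, *SMAD3* 25.2 and 24.6, and *GTF2H1* 15.2 and 17.1, all in overlapping ranges, and *SLC25A33* had 15.2 and 19.4 and was higher in 6AN at 11 of 12 time points.

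**Figure D3:**
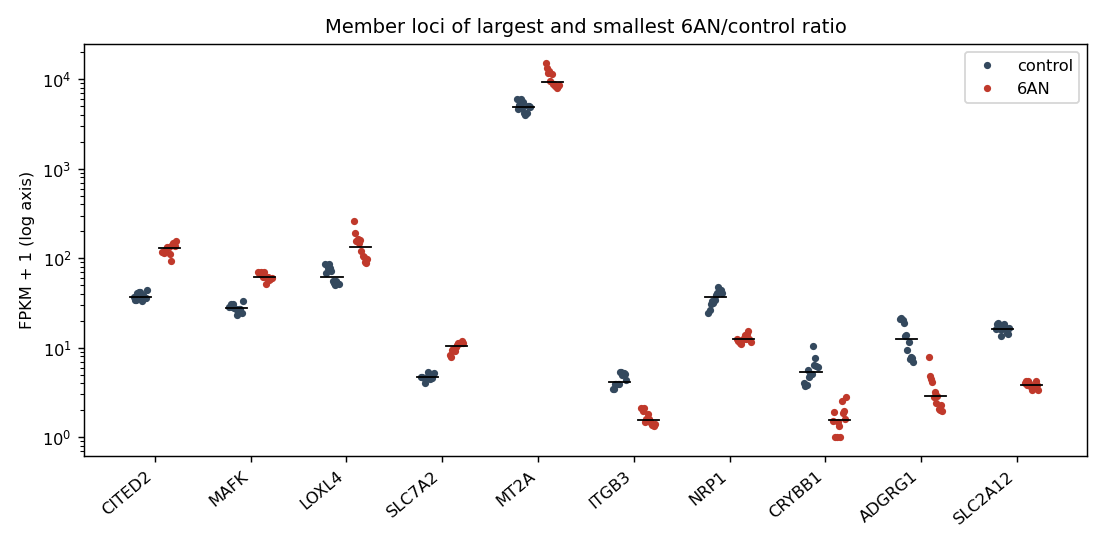
FPKM + 1 on a log axis for the 10 loci of largest and smallest 6AN/control ratio, where each point is 1 of 12 time points in control (dark) or 6AN (red) and the black bars are medians. By this choice the 5 loci on the left are higher in 6AN and the 5 on the right lower, and the ranges overlap only for *ADGRG1*.

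No rhythm of the assigned loci passed correction in either condition. With limma, a 24 hr cosine and sine were fitted to log2(FPKM + 1) within each table, and Benjamini-Hochberg adjustment covered all 13979 expressed loci. In 6AN, 11 of the 424 loci had an unadjusted p of at most 0.01 (2.59%), where 1.19% of all expressed loci did, and in control 6 did (1.42%), where 1.05% did. The numbers at an unadjusted p of at most 0.05 were 26 (6.13%) in 6AN and 22 (5.19%) in control, where 4.75% and 5.11% of all expressed loci were, and the smallest adjusted p was 0.63 in 6AN and 0.61 in control. With a rank test against umbrella shapes the counts at 0.01 were 4 and 3, or 0.94% and 0.71%, against 1.02% and 0.94% of all expressed loci. No locus was past 0.01 in both conditions. For comparison, 10 of the 21 expressed clock loci had a p of at most 0.01 in 6AN by the same limma fit and 6 in control, none of them past correction.

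The loci of smallest p in 6AN had lower amplitudes than *PER2*. Their amplitudes were above the median of 0.07 over the 424 loci, which a choice by small p favours. *TFAP4*, a bHLH factor that binds another kind of E-box, ran from 8.51 to 13.3 FPKM in 6AN (median 11), with an amplitude of 0.23 on the log2 scale and a fitted peak at 15.1 hr (limma p = 0.00055, adjusted p = 0.63). *LDB1*, an adaptor that bridges LIM-domain factors, *HAGH*, the glyoxalase II of methylglyoxal disposal, and *ARHGEF17*, a guanine nucleotide exchange factor, had amplitudes of 0.15, 0.16, and 0.18, and fitted peaks at 11.2, 13.6, and 13.6 hr. The clock gene *PER2*, which had a CLOCK interval in both conditions, had an amplitude of 0.39 in 6AN with a fitted peak at 10.2 hr (limma adjusted p = 0.67).

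**Figure D4:**
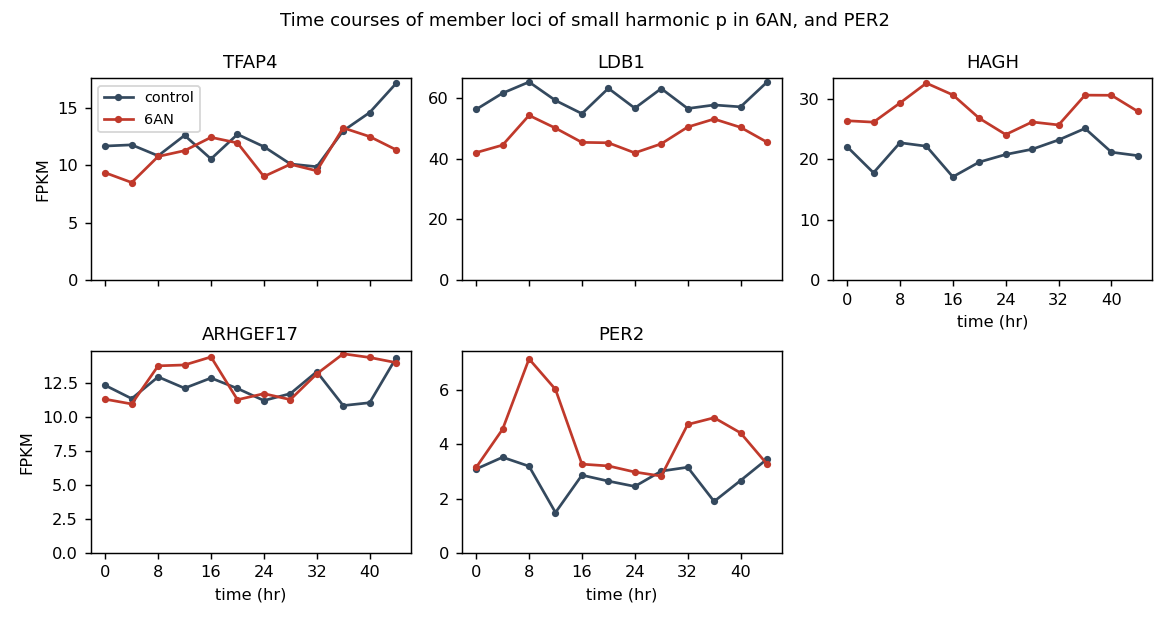
FPKM against time in hr for 4 loci of small harmonic p in 6AN and for the clock gene *PER2*, in control (dark) and 6AN (red), with 1 library for each point and each axis from 0. *HAGH* stays above control and *LDB1* below it at all 12 time points, and *PER2* has its highest 6AN value at 8 hr.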

How the data were processed

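The members and gene lists were chosen with earlier results of these data known. The RNA-seq values deposited by the authors are FPKM of 28690 loci from single-end reads, and each condition has its own table, scaled by the authors over 12 libraries. A HOMER peak score was deposited for each merged ChIP-seq interval, in tags at the peak scaled to 10000000 tags, averaged over joined peaks, and the signal, tags in 1000 bp on the same scale, at sites shared by BMAL1 and CLOCK. The submitters' processing notes name Bowtie, Bowtie2, TopHat, Cufflinks, HOMER, and hg38, and versions were not given in the sources used here. All per-sample columns were mapped, so 0 were left out. Whether the triplicate RNA extracts were pooled is not stated, so p-values measure only the spread between these libraries.

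Promoter windows and start sites came from RefSeq (GRCh38.p14). No genome was given, so motifs were read in these windows only, a choice made after seeing the data, in place of windows around each midpoint. Small RNA loci were left out of the assignment. Expressed loci had a mean of at least 1 FPKM over 24 libraries, and a pseudocount of 1 was added before logarithms. Relative depth of the RNA libraries came from the commonest ratio between libraries at loci that were at 0 in 8 to 10 of 12 libraries, where 1 read is a fixed step. Python 3.11.15, pandas 2.3.3, NumPy 2.4.6, SciPy 1.17.1, matplotlib 3.10.9, R 4.3.3, and limma 3.58.1 were used, with the moderated F test and a trended prior in limma. The umbrella rank test, built after RAIN, used 18 shapes and 1000000 random orders. Both rhythm tests were tested on simulated data.

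Genes were named by rule: the loci of the 12 highest scores, list genes with an interval, the 5 largest and 5 smallest ratios on the same side at all 12 time points, and the 5 smallest harmonic p in 6AN. Some loci under this rule are not reported here. Loci of printed sequences, loci named beside a count of several, and clock genes given for comparison stand outside it and were chosen after values were seen. Alternatives covered pseudocounts, filters, centring and scaling, locus rules, score limits, rhythm tests, and leaving out each time point.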

Additional observations from a re-analysis of the deposited data

How the results depend on the processing

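Of the 716 intervals, 466 scored at least as high as the lowest interval found only in the CLOCK control library and 46 reached the median of CLOCK in both conditions. The promoter share was 46.6% with a limit of 5 kb, and the E-box share 54.0% above the median score. Of the 424 loci, 6 were higher (1.42%) and 11 lower (2.59%) with a fold of 2, where 2.46% and 3.32% of all expressed loci were. Of 194 loci with scores above the median, 17 were higher (8.76%) and 13 lower (6.70%), against 5.87% and 9.69% of all. Within 1 kb of a start site or locus edge, 11 of 257 loci were lower (4.28%), against 9.69% of all. The median log2 ratio of the 424 loci was 0.056 when centred on all expressed loci, and it was 0.034 for scores above the median. For rhythm in 6AN, 26 of the 424 loci had a limma p of at most 0.05 (6.13%), where 4.75% of all expressed loci did. The umbrella test gave 4 (0.94%), against 1.02% of all. Within 1 kb of a start site or locus edge there were 6 of 257 (2.33%), against 1.19% of all. For rhythm in control, 22 had a limma p of at most 0.05 (5.19%), against 5.11% of all. A linear trend gave 10 (2.36%), against 1.42% of all, and a period of 28 hr gave 2 (0.47%), against 0.84%. The umbrella test gave 3 (0.71%), against 0.94% of all. The score and position limits leave fewer loci, and the lower loci within 1 kb were also a smaller share, 4.28% against 7.08%. The cause of the changes was not tested. The other 52 of 70 results under alternatives stayed within the error or within 1.5 times. Leaving out 1 time point gave 33 to 37 higher and 28 to 32 lower loci, median log2 ratios of 0.01 to 0.02, and rhythm counts of 8 to 15 in 6AN and 3 to 9 in control, where 3 came without 4 hr. The tables of both conditions were normalized separately, so no paired test was made between them by time point. E-box windows of 200 and 1000 bases around midpoints were not run, since they need a genome. Depth limits the scores, since the median interval rested on 19 mates.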
